A study of Drosophila melanogaster with 9 samples.

Results

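Chitin is the long sugar polymer that stiffens the insect cuticle, lines the tracheal tubes and forms part of the sheath around food in the gut. The 9 genes described here code for proteins that make, arrange, modify or cut it, and they were taken by name (kkv, knk, rtv, serp, verm, Cht2, Cht5, Cht7 and Cht10) from the 17759 genes of the deposited table of Drosophila melanogaster counts. All 9 had rows and all 9 passed the filter on low counts, which left 12883 genes for testing. Their counts in a library ranged from 244 (rtv, high replicate 2) to 31650 (Cht10, low replicate 1), so counting error weighs most on rtv.

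The libraries were made from whole third-instar larvae collected while wandering, when they crawl out of the food to form a puparium. Larvae were reared at 5 (low), 60 (medium) or 300 (high) eggs per ml on a diet of sugar and yeast, with 3 libraries per density and 10 larvae pooled in each. The labels also describe counting out newly hatched larvae to set the density, and they give no strain, sex or hour of collection. Nothing in the labels says whether replicate pools came from separate cultures, so p-values measure the spread between these pools only. In RNA of a whole animal, fewer cells of a type and less RNA per cell cannot be told apart.

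Chitin is built from the activated sugar UDP-N-acetylglucosamine by chitin synthases in the cell membrane and is pushed out of the cell as it grows. Accessory proteins then order the fibres, deacetylases remove acetyl groups from some of the sugars, and chitinases cut the chain. At each moult and at puparium formation, pulses of the steroid hormone ecdysone time the renewal of the cuticle.

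The synthase gene kkv (krotzkopf verkehrt) lies on chromosome 3R, 5378093 to 5392866, minus strand, in Release 6 coordinates, and codes for the chitin synthase of epidermis and trachea. The gene knk (knickkopf; 3R, 10122365 to 10125664, minus strand) codes for a protein that arranges chitin fibres and, in the beetle Tribolium, shields them from chitinases. The gene rtv (retroactive; X, 11152484 to 11153990, minus strand) codes for a small membrane-linked protein, which in Tribolium is needed to bring Knk to the cuticle. The deacetylase genes serp (serpentine; 3L, 19700977 to 19708015) and verm (vermiform; 3L, 19690033 to 19695260) lie on the same minus strand, 5716 bases apart, with 0 annotated genes lying wholly between them. Both proteins are secreted into the tracheal lumen of the embryo, where they limit tube length. The chitinase genes are Cht2 (3L, 1752328 to 1755934, minus strand), Cht5 (3R, 13767549 to 13770732, plus strand), Cht7 (3L, 3090985 to 3106958, minus strand) and Cht10 (2L, 22999574 to 23025915, minus strand). Cht5 and Cht10 are known in Tribolium as enzymes needed for moulting, and Cht10 has several catalytic domains in a row. The start and end of all 9 genes were the same in the deposited table and in the Ensembl annotation of the same assembly. No other gene had an exon on the same strand that overlapped theirs. Only 3 of their 81 count values were not whole numbers, as the fractions given to reads that map to several places would make them.

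Between 16822606 (high replicate 2) and 25141308 (high replicate 3) counts were assigned to genes in a library. High replicate 3 stood apart from its group: Pearson r of log2 CPM (counts scaled to library size with TMM factors) was 0.949 with high replicate 1 and 0.967 with high replicate 2, and 0.977 between replicates 1 and 2. The same library differed in genes of the ecdysone response, of which Eip78C and Hr4 are named as examples chosen after their values were seen. Of the 11 genes on that list they lay furthest below the low mean in high replicates 1 and 2. Eip78C, an ecdysone-induced nuclear receptor, had 20.2, 29.3 and 406 CPM in the 3 high libraries, against 369, 427 and 459 CPM at low density. Hr4, another such receptor, had 13.3, 13.7 and 161 CPM at high density, against 213, 232 and 193 CPM at low density. Over the 11 genes of the ecdysone response list, summed CPM was between 4017 and 4193 at low and between 3895 and 4545 at medium density, and 2099, 2018 and 3361 in high replicates 1, 2 and 3. Of these sums br alone gave 2191, 2058 and 2168 CPM in the low libraries. Between high and low density 9 of the 11 genes had a log2 change below 0 and 2 above. For ftz-f1 log2 CPM was 1.67, 1.27 and 0.752 above the low mean in high replicates 1, 2 and 3. Counts of calls for the 9 genes and some other comparisons below are also given without this library.

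Levels of different genes were compared per length, as TPM (counts divided by the deposited exon length and scaled to the same sum in every library). Cht10 was the most abundant of the 9 in each density, at 261 ± 15.9 TPM at low, 245 ± 30.1 TPM at medium and 236 ± 41.7 TPM at high density (SD, n = 3 each). At low density the order after it was Cht5 (133 ± 13.6 TPM), verm (72.2 ± 2.12), serp (47.8 ± 2.15), Cht2 (44.7 ± 2.19), kkv (33.9 ± 2.98), knk (23.6 ± 1.33), Cht7 (18.6 ± 4.21) and rtv (17.8 ± 2.36). The libraries of serp and Cht2 overlapped there, as did those of knk and Cht7 and those of Cht7 and rtv, while all other neighbours in the order were separate. The order of mean TPM was the same at medium density. At high density Cht5 ranked 4 by its mean of 68.5 ± 22.8 TPM, after verm (111 ± 7.47 TPM) and serp (79.6 ± 19.7 TPM), although the libraries of Cht5 overlapped those of serp and of kkv. Without high replicate 3, rank 4 went to kkv (63.7 TPM, Cht5 56.7 TPM), Cht7 stood above Cht2 (38.4 and 35.9 TPM), and the other 5 genes kept their places. TPM serves here to set genes beside each other within a density, and differences between densities are given in CPM scaled with TMM factors.

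**Figure D1:**
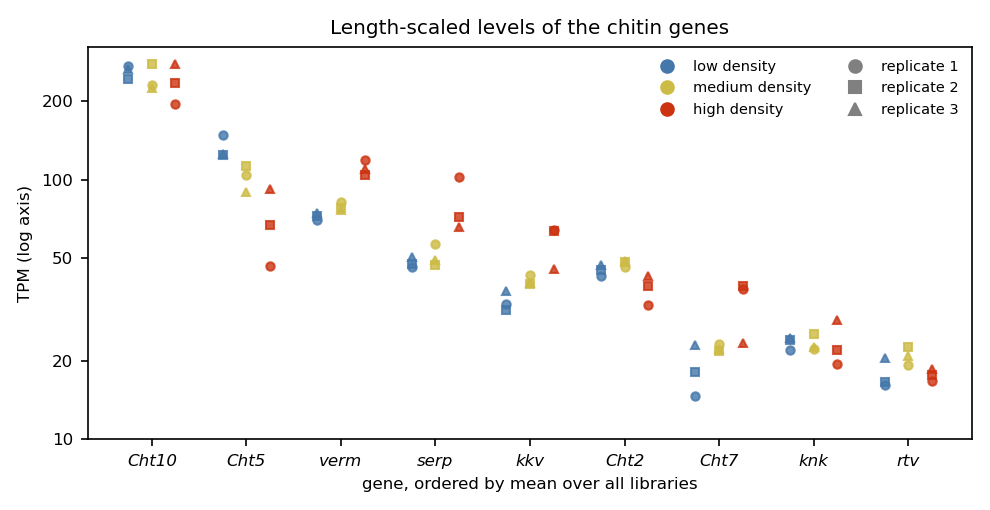
TPM of each gene in each of the 9 libraries (log axis), with genes from left to right by their mean over all libraries, colour for density and symbol for replicate number. Cht10 lies highest at every density, and Cht5 lies between 125 and 149 TPM in the low libraries and between 46.5 and 92.1 TPM in the high libraries.

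For kkv, CPM was 129, 117 and 141 in the low libraries, 177, 153 and 162 in the medium libraries and 230, 203 and 138 in the high libraries. The low and medium libraries did not overlap, and high replicate 3 lay among the low ones. For knk, CPM was 40.1, 42.2 and 43.5 in low pools, 43.3, 45.9 and 43.2 in medium pools and 32.5, 33.3 and 41.5 in high pools. Here high replicates 1 and 2 were below every other library, and high replicate 3 was again within the low range.

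For rtv, CPM was 14, 13.8 and 17.3 in low pools, 17.9, 19.5 and 18.9 in medium pools and 13.4, 12.7 and 12.7 in high pools. In these TMM-scaled values all 3 high libraries were below all low and medium libraries, and all 3 medium libraries were above the rest. The log2 change between high and low density was -0.22 with TMM factors and -0.07 with library totals alone. This gene did not set high replicate 3 apart.

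For serp, CPM was 79.7, 78.2 and 84.8 in low pools, 104, 80.4 and 88.4 in medium pools and 163, 102 and 89.2 in high pools. The high libraries were all above the low ones, but high replicate 1 was far above the other 2. Its neighbour verm had 113, 112 and 116 CPM in low pools, 141, 124 and 129 in medium pools and 177, 139 and 139 in high pools. The 3 densities of verm overlapped only between medium and high.

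Among the chitinases, Cht2 had 87.4, 89.2 and 94.2 CPM in low pools, 102, 99.2 and 106 in medium pools and 62.9, 66.6 and 69.3 in high pools. No pair of densities overlapped, and the high libraries were the lowest. Between medium and low density its log2 change was 0.18 with TMM factors and 0.076 with library totals alone. Cht5 had 215, 173 and 177 CPM in low pools, 160, 162 and 136 in medium pools and 61.9, 80.1 and 105 in high pools. Its densities did not overlap either, with low highest and high lowest.

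Cht7 had 39.3, 46.6 and 60.4 CPM in low pools, 66.6, 58.2 and 62.8 in medium pools and 94.0, 86.5 and 49.8 in high pools. High replicates 1 and 2 were above every other library, and high replicate 3 was within the low range. Cht10 had 1375, 1172 and 1305 CPM in low pools, 1236, 1394 and 1184 in medium pools and 904, 977 and 1104 in high pools. In these TMM-scaled values the high libraries were below all others, and low and medium overlapped. By library totals alone high and low overlapped. Cht10 had 31265 of 25141308 counts in high replicate 3 and 27999 of 23656877 in low replicate 2. Between high and low density the log2 change of Cht10 was -0.37 with TMM factors and -0.21 with library totals alone.

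**Figure D2:**
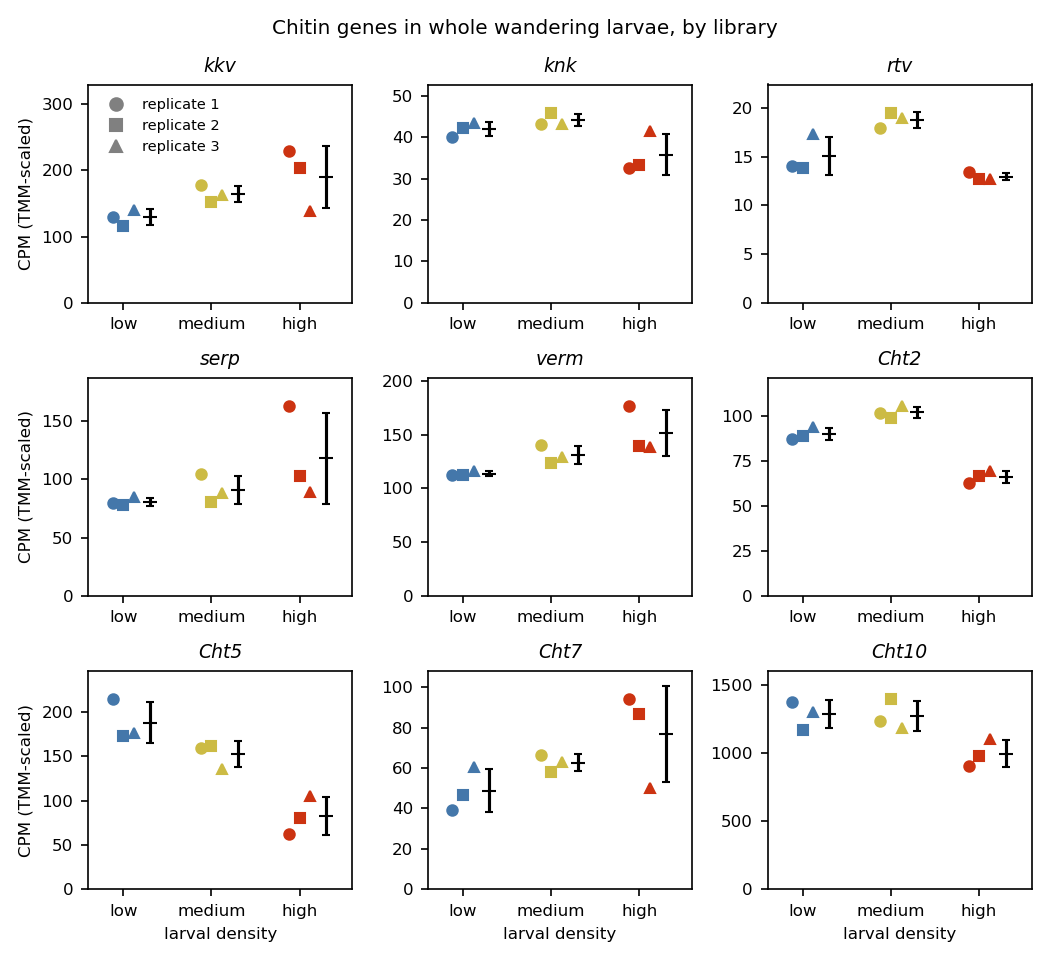
TMM-scaled CPM of each gene by density, with 1 symbol per library (circle, square and triangle for replicates 1, 2 and 3) and the mean ± SD of 3 libraries beside them. Cht2 and Cht5 are lowest in the 3 high libraries, and the triangle for high replicate 3 lies within the low range for kkv, knk and Cht7.

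High against low density compares the extremes of crowding. Chitinase transcripts Cht5 and Cht2 fell and the deacetylase transcript verm rose at high density, so that 3 of the 9 genes passed an adjusted p of 0.05 in edgeR, 1 higher and 2 lower; of all tested genes 15.2% were called (4.18% higher, 11% lower). Cht5 averaged 82.3 ± 21.6 CPM in high and 188 ± 23.1 CPM in low pools (mean ± SD, 3 pools each; log2 change -1.19 ± 0.18, SE, edgeR adjusted p 0.00567), or 2.28-fold lower. Cht2 averaged 66.3 ± 3.23 and 90.3 ± 3.48 CPM at high and low density (log2 change -0.45 ± 0.06, SE, edgeR adjusted p 0.00389). For verm the averages were 152 ± 21.7 CPM at high and 114 ± 2.36 CPM at low density, with a log2 change of 0.42 ± 0.10 (SE, edgeR adjusted p 0.0296). Cht5 and Cht2 kept their calls in all 19 alternative analyses. The call for verm was lost in 6 of them, among them the fits without low replicate 1, without low replicate 2, without low replicate 3 or without medium replicate 3 (largest adjusted p 0.108).

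The other 6 genes missed the threshold in this comparison. The synthase kkv averaged 190.3 ± 47.2 CPM in high and 129 ± 12.1 CPM in low pools (mean ± SD, 3 pools each; log2 change 0.56 ± 0.17, SE, edgeR adjusted p 0.0618). Cht7, a membrane-bound chitinase, had a log2 change of 0.65 ± 0.24 (SE, edgeR adjusted p 0.102) and serp one of 0.55 ± 0.21 (SE, adjusted p 0.114). Cht10 had a log2 change of -0.37 ± 0.11 (SE, edgeR adjusted p 0.0588), knk -0.23 ± 0.10 (adjusted p 0.164) and rtv -0.22 ± 0.11 (adjusted p 0.218). The median log2 change over the 9 genes was -0.22, against 0.06 over all tested genes. In TMM-scaled CPM, high and low libraries did not overlap in 6 of the 9 genes (2 higher, 4 lower). The same held for 33% of all tested genes (13.4% higher, 19.6% lower). In edgeR 8 of the 9 and 30.1% of all genes had an unadjusted p under 0.05.

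Without high replicate 3 the count was 8 of 9 genes, 4 higher (kkv, serp, verm and Cht7) and 4 lower (knk, Cht2, Cht5 and Cht10), where 21.2% of all genes were called. In that fit the log2 change was 0.75 for kkv (edgeR adjusted p 0.00164), 0.89 for Cht7 (adjusted p 0.00526), 0.72 for serp (adjusted p 0.0282), -0.45 for Cht10 (adjusted p 0.0235) and -0.35 for knk (adjusted p 0.0142). Leaving out high replicate 1 instead moved the values the other way, to 0.24 for serp (edgeR adjusted p 0.18), 0.40 for kkv (0.131), 0.48 for Cht7 (0.204), -0.31 for Cht10 (0.113) and -0.17 for knk (0.271). High replicate 3 was the high library nearest to the low mean for 8 of the 9 genes, for 10 of the 11 ecdysone response genes and for 37.3% of all tested genes. The part of the ecdysone response genes in these differences was not tested. Scaling changed the count as well: with library totals alone, which shifted the median log2 change of all genes by 0.15, 6 of the 9 genes and 19.7% of all genes were called, the 6 being 4 higher (kkv, serp, verm and Cht7) and 2 lower (Cht2 and Cht5). DESeq2 also called 6 (kkv, verm, Cht2, Cht5, Cht7 and Cht10), and 21% of all genes with an adjusted p.

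**Figure D3:**
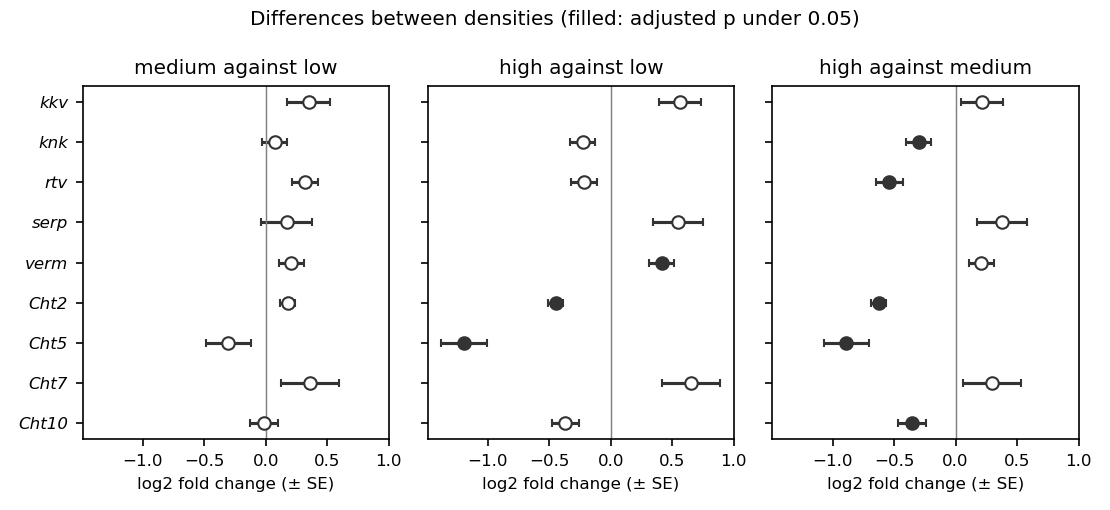
Log2 fold changes of the 9 genes with their standard errors from the edgeR fit of all 9 libraries, for medium against low, high against low and high against medium. Filled points passed an adjusted p of 0.05: 0 genes for medium against low, 3 for high against low and 5 for high against medium.

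Medium was next set against low density. In edgeR 0 of the 9 genes passed the threshold, as did 0% of all tested genes, while 2 of the 9 and 25% of all genes had an unadjusted p under 0.05. The smallest adjusted p among them was 0.134, for rtv, which averaged 18.8 ± 0.792 CPM in medium pools and 15.1 ± 1.97 CPM in low pools (SD; log2 change 0.32 ± 0.11, SE, edgeR). Cht2 was close to it at an adjusted p of 0.136, with 102 ± 3.24 CPM in medium pools and 90.3 ± 3.48 CPM in low pools. DESeq2 called 1 gene, Cht2, with an adjusted p of 0.0468, where it called 13% of all genes with an adjusted p. Cht5 had a log2 change of -0.30 ± 0.18 and kkv of 0.35 ± 0.17 (SE, edgeR adjusted p 0.33 and 0.244). With male-specific roX transcripts as a covariate, the changes were -0.007 ± 0.215 for Cht5 and 0.17 ± 0.225 for kkv (SE). In TMM-scaled CPM, medium and low libraries did not overlap in 5 of the 9 genes (kkv, rtv, verm and Cht2 higher, Cht5 lower). The same held for 40.4% of all tested genes (18.2% higher, 22.2% lower). The median log2 change was 0.18 over the 9 genes and 0.02 over all tested genes.

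High against medium density compares severe with moderate crowding, with the same high libraries as the comparison against low. Transcripts of 3 chitinases (Cht2, Cht5 and Cht10) and of both fibre-organizing genes (knk and rtv) fell with TMM factors. In edgeR 5 of the 9 genes were called, 0 higher and 5 lower. Of all genes 39.6% were called (21.3% higher, 18.3% lower). At an unadjusted p under 0.05 the counts were 5 of 9 genes and 49.3% of all genes. Cht5 averaged 82.3 ± 21.6 CPM at high and 152 ± 14.6 CPM at medium density (mean ± SD, 3 pools each; log2 change -0.89 ± 0.18, SE, edgeR adjusted p 0.00974). Cht2 averaged 66.3 ± 3.23 and 102 ± 3.24 CPM at high and medium density (log2 change -0.62 ± 0.06, SE, edgeR adjusted p 0.00139). For rtv the averages were 12.9 ± 0.38 CPM at high and 18.8 ± 0.792 CPM at medium density (log2 change -0.54 ± 0.11, SE, edgeR adjusted p 0.00917). Smaller falls were found in Cht10, with a log2 change of -0.35 ± 0.11 (adjusted p 0.0347), and in knk, with one of -0.30 ± 0.10 (SE, adjusted p 0.0418).

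Only Cht2 and Cht5 kept these calls in all 19 alternatives. The male-specific transcripts roX1 and roX2 had a summed CPM of 361 to 611 at high and 137 to 422 at medium density, with overlap. With the level of these transcripts as a covariate, rtv (log2 change -0.47, edgeR adjusted p 0.0677), knk (-0.34, adjusted p 0.12) and Cht10 (-0.50, adjusted p 0.0545) were not called, where 8.33% of all genes were called. The change was smaller than in the fit without the covariate for rtv and larger for knk and Cht10. The calls for knk and Cht10 were also lost in 12 and 9 further alternatives, among them the fits without medium replicate 1, 2 or 3, without high replicate 1 or without high replicate 2. The call for knk was lost as well without low replicate 1 or without low replicate 2. With library totals alone, which shifted the median of all genes by 0.25 on the log2 scale, kkv, serp and verm were called higher. The calls for knk, rtv and Cht10 were lost there, where 45.8% of all genes were called. Their log2 changes shrank to -0.047 for knk, -0.29 for rtv and -0.10 for Cht10 (edgeR adjusted p 0.767, 0.0559 and 0.535). Without high replicate 3, 7 of the 9 genes were called (37.2% of all genes), with kkv and Cht7 higher. Without high replicate 1 the log2 change was 0.07 for serp, 0.05 for kkv and 0.12 for Cht7 (edgeR adjusted p 0.656, 0.816 and 0.729).

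The genes serp (log2 change 0.38 ± 0.21), verm (0.21 ± 0.10), kkv (0.21 ± 0.17) and Cht7 (0.30 ± 0.24; SE) did not pass the threshold between high and medium density (edgeR adjusted p 0.179, 0.138, 0.354 and 0.351). The median over the 9 genes was -0.30, against 0.01 over all tested genes. In TMM-scaled CPM, high and medium libraries did not overlap in 5 of the 9 genes, all lower at high density. The same held for 49.2% of all tested genes (24.9% higher, 24.2% lower).

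The joint edgeR test for any difference among the 3 densities called 4 of the 9 genes, Cht2 (adjusted p 0.00306), Cht5 (0.0103), rtv (0.0222) and verm (0.0374), where 33.6% of all genes were called. Cht10 was just outside the threshold (0.0502). With the roX covariate, without medium replicate 1, without medium replicate 3 or without high replicate 2, the count was 2 (Cht2 and Cht5). The covariate fit called 12% of all genes. Without medium replicate 1, medium replicate 3 or high replicate 2, calls over all genes numbered 1285, 1387 and 990, against 4330 with all libraries. Without high replicate 3 all 9 genes were called, where 32.7% of all genes were called.

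Ratios of gene pairs within a library do not depend on depth or scaling factors, but they restate the changes of the same genes given above. The TPM ratio of Cht5, a moulting chitinase, to kkv, the synthase, was 4.47, 3.98 and 3.37 in the low libraries, 2.43, 2.85 and 2.25 in the medium libraries and 0.724, 1.06 and 2.04 in the high libraries. The 3 densities did not overlap, and the ratio was ordered from low density (highest) through medium to high density (lowest). Geometric means were 3.37-fold lower at high than at low density and 2.15-fold lower at high than at medium density. Without high replicate 3 these folds were 4.47 and 2.85, and without high replicate 1 they were 2.66 and 1.70. The ratios were compared by the overlap of libraries alone. No test was run on them, and the roX covariate was not applied to them.

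The ratio of Cht10 to Cht7 was 18.8, 13.5 and 11.6 in low pools, 9.95, 12.8 and 10.1 in medium pools and 5.15, 6.05 and 11.9 in high pools. High replicates 1 and 2 were below all other libraries, and high replicate 3 was within the low range. The ratio of serp to verm, the neighbouring deacetylases, was 0.663 ± 0.015 in low, 0.644 ± 0.043 in medium and 0.714 ± 0.132 in high pools (SD, n = 3 each), with overlapping libraries. Its highest value, 0.858, was in high replicate 1, without which the ratio was slightly lower at high than at low density.

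**Figure D4:**
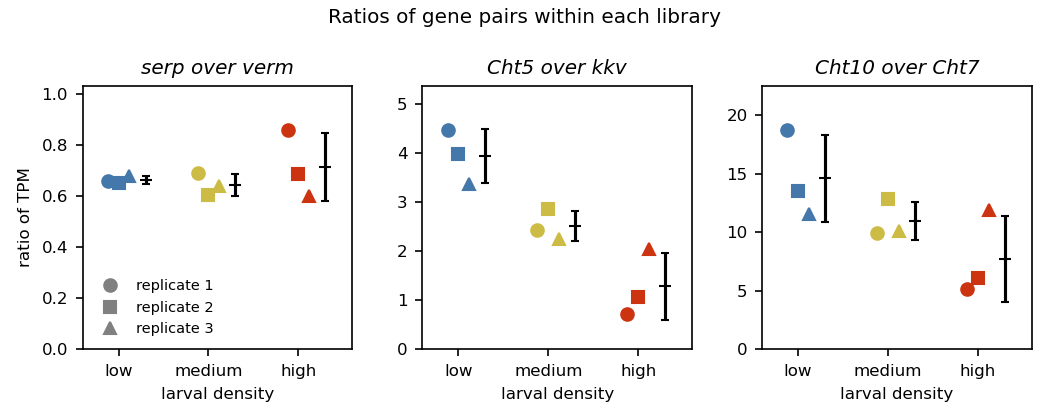
Ratio of TPM of serp to verm, Cht5 to kkv and Cht10 to Cht7 in each library by density, with the mean ± SD of 3 libraries. The Cht5 to kkv ratio is between 3.37 and 4.47 at low, between 2.25 and 2.85 at medium and between 0.724 and 2.04 at high density.

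Other genes of chitin metabolism were taken from a list of 35 symbols, of which 33 had rows (knk2 and knk3 were not analysed here) and 32 were tested; Cht8 was below the filter. Between high and low density 8 rose and 2 fell in edgeR, where 15.2% of all tested genes were called. Between high and medium density 6 rose and 7 fell, a share close to the 39.6% called among all genes. Between medium and low density 0 were called in edgeR, while 6 of 32 had an unadjusted p under 0.05, a smaller share than the 25% of all genes. Their median log2 change was 0.33 between high and low and 0.19 between high and medium density, against 0.06 and 0.01 over all tested genes. Without high replicate 3, 15 rose and 3 fell between high and low density, and 15 rose and 7 fell between high and medium density (21.2% and 37.2% of all genes called). With the roX covariate 3 rose and 1 fell between high and medium density (8.33% of all genes called).

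In the sugar precursor pathway, 1 of 5 genes rose between high and low density, where 4.18% of all tested genes were called higher. It was Gfat1, the first enzyme of hexosamine synthesis (log2 change 0.48 ± 0.14, SE, edgeR adjusted p 0.0482). Of 19 alternatives 11 lost that call, including the removal of any low or medium library, of high replicate 1 or of high replicate 2. Gnpnat, which acetylates the hexosamine, averaged 69.5 ± 7.76 CPM at high and 98.2 ± 3.61 CPM at medium density (SD, n = 3 each; log2 change -0.50 ± 0.11, SE, edgeR adjusted p 0.0113). Gfat2, which was also called lower between high and medium density, had a log2 change of -0.39 ± 0.13 (adjusted p 0.0437) and lost its call in 13 alternatives, including the removal of any library other than medium replicate 2 or high replicate 1. The genes exp (expansion) and reb (rebuff), which in Drosophila are needed for chitin to be laid down by Kkv, gave 1 call: exp averaged 27.1 ± 4.07 CPM at high and 17.2 ± 1.79 CPM at low density (log2 change 0.65 ± 0.16, SE, edgeR adjusted p 0.0267). Chs2, the second chitin synthase, which serves the gut, fell to 9.6 ± 0.51 CPM at high, against 14.1 ± 2.78 CPM at low density (log2 change -0.55 ± 0.16, SE, adjusted p 0.049), a call kept in 3 of 19 alternatives and lost without any library other than low replicate 3. Between high and medium density its log2 change was the same size, -0.55 ± 0.16 (adjusted p 0.0245), a call lost without medium replicate 1, medium replicate 3, high replicate 1 or high replicate 2. Gfat1, Gfat2, exp, Chs2, Cda9, Cht12, Hexo1, obst-A, obst-E and Gasp fall outside the rule for naming genes and are given because of their calls.

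The other chitinases differed among themselves. Cht11 averaged 28.7 ± 0.808 CPM in low, 29.1 ± 1.34 CPM in medium and 15.1 ± 3.8 CPM in high pools (SD, n = 3 each). Its log2 change was -0.92 ± 0.16 between high and low (SE, edgeR adjusted p 0.00842) and -0.94 ± 0.16 between high and medium density (adjusted p 0.00592), and both calls held in all 19 alternatives. Cht9 had 50.7, 35.7 and 15.3 CPM in the high libraries, against 7.64, 4.87 and 4.09 CPM in the medium libraries, a log2 change of 2.61 ± 0.42 (SE, edgeR adjusted p 0.00503). Its low libraries had 22.8, 21.2 and 19.4 CPM, so medium density was the lowest of the 3. Cht4 was also lowest at medium density (13.1 ± 1.17 CPM at low), with 11.2 ± 1.86 CPM at high and 4.02 ± 1.52 CPM at medium density (log2 change 1.47 ± 0.27, SE, adjusted p 0.00763). Cht12 also rose between high and medium density (log2 change 1.48 ± 0.39, SE, adjusted p 0.0181), a call lost without medium replicate 1, without high replicate 2, with the roX covariate and with only those 2 groups. Hexosaminidases can split the fragments that chitinases leave. Their genes gave 2 calls of 3 between high and medium density, where 39.6% of all tested genes were called (18.3% lower). Hexo2 averaged 28.4 ± 7.07 CPM at high and 53.6 ± 5.46 CPM at medium density (log2 change -0.92 ± 0.17, SE, edgeR adjusted p 0.0073). Hexo1 had a log2 change of -0.47 ± 0.11 (SE, adjusted p 0.0137), a call lost without medium replicate 1. Between high and medium density the calls for Gnpnat, Gfat2, Chs2, Cht4, Hexo1 and Hexo2 were lost with the roX covariate.

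Among the 12 chitin-binding proteins, 5 rose between high and low density and 0 fell. Of all tested genes 4.18% were called higher and 11% lower in that comparison. The gene obst-F, of the obstructor family of chitin-binding proteins, had 54.9, 47.4 and 15.8 CPM at high density, against 9.64, 7.83 and 7.31 CPM at low density (log2 change 2.25 ± 0.41, SE, edgeR adjusted p 0.00993). Peritrophins are proteins of the chitin sheath around the gut contents. Peritrophin-15a averaged 474 ± 162 CPM in high and 235 ± 3.12 CPM in low pools (SD, n = 3 each; log2 change 1.02 ± 0.24, SE, adjusted p 0.0254), and Peritrophin-15b 318 ± 74.8 and 171 ± 11.7 CPM at high and low density (log2 change 0.89 ± 0.19, SE, adjusted p 0.016). The other 2 were obst-E (2.39 ± 0.62, adjusted p 0.0347) and Gasp, a chitin-binding protein of the tracheal lumen (1.09 ± 0.25, SE, adjusted p 0.0242). Single libraries decided several of these calls: those of obst-E, Gasp and Peritrophin-15a were each lost without any 1 of the 3 low libraries, without high replicate 1 or without high replicate 2, and that of obst-E also without medium replicate 1 or 3. The call for Peritrophin-15b was lost without any 1 of the low libraries or without high replicate 2. Between high and medium density obst-F (log2 change 1.44 ± 0.40, adjusted p 0.0221), Peritrophin-15a (1.05 ± 0.24, adjusted p 0.0124) and Peritrophin-15b (0.88 ± 0.19, SE, edgeR adjusted p 0.0102) rose too, though the call for obst-F was lost without medium replicate 1, medium replicate 2, high replicate 1 or high replicate 2. There obst-A was the 1 chitin-binding gene to fall (log2 change -0.49 ± 0.16, SE, edgeR adjusted p 0.0394). Its call was lost without low replicate 1, without any 1 medium library, without high replicate 1 or without high replicate 2. Of all genes 21.3% were called higher and 18.3% lower between high and medium density. With the roX covariate the calls for obst-A, obst-F and Peritrophin-15a in that comparison were lost. Among the 4 further deacetylase genes, Cda9 alone was called, between high and low density, where 15.2% of all tested genes were called. It had 130, 101 and 44.5 CPM in the high libraries, against 32.1, 29.9 and 39.4 CPM at low density (log2 change 1.44 ± 0.33, SE, edgeR adjusted p 0.0233). The calls for Cda9 and exp were lost without any 1 of the low libraries, without high replicate 1 or without high replicate 2.

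**Figure D5:**
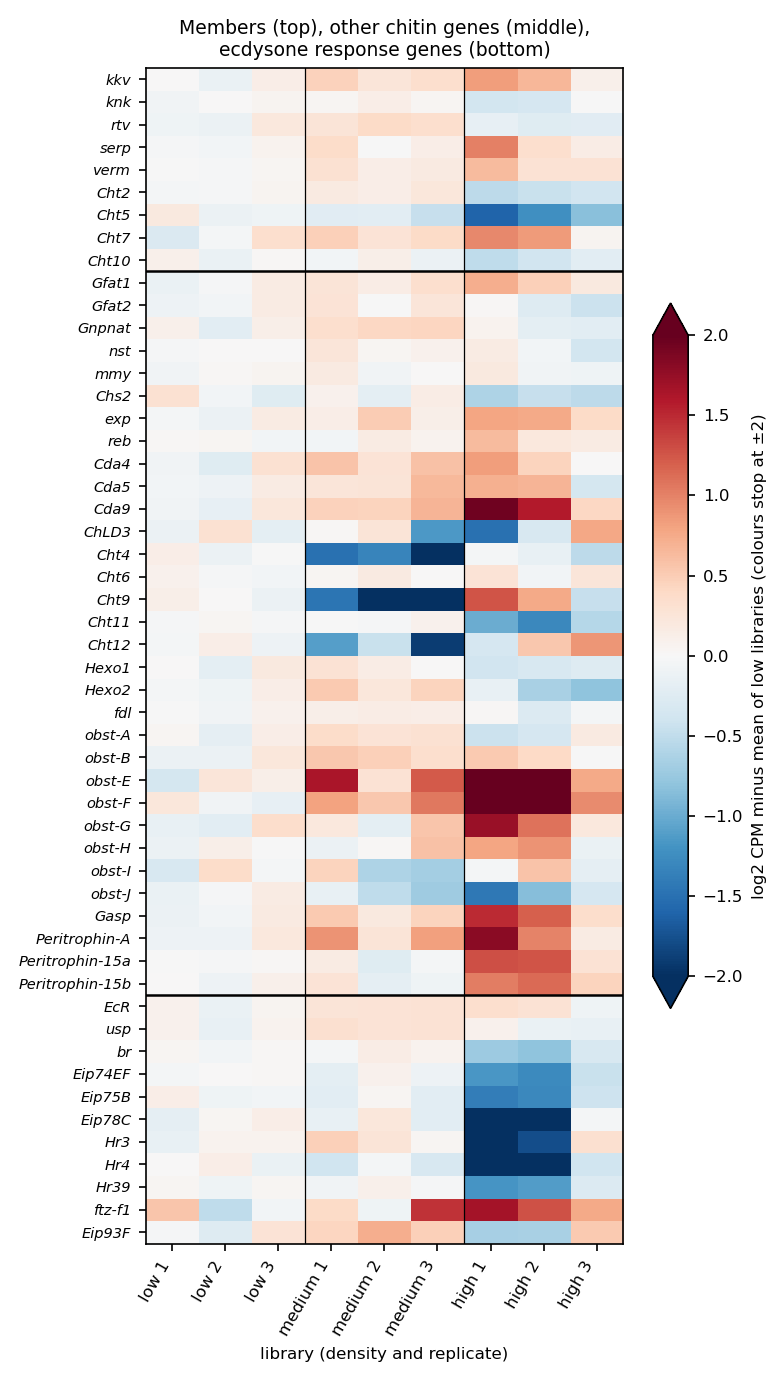
Log2 CPM of the 9 genes (top), the 32 other tested chitin genes (middle) and the 11 ecdysone response genes (bottom) in each library, relative to the mean of the 3 low libraries, with colours that stop at 2 in either direction. Cht4 and Cht9 reach their strongest colours in medium libraries, Cht5 in high replicates 1 and 2, and high replicate 3 is nearest to the low mean for 8 of the 9 genes.

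Genes with the most similar pattern were sought over the 9 libraries by Pearson's r of log2 CPM, among 9576 genes with a mean of at least 5 CPM, as a description without a test. The 9 points share density groups and the libraries that stand apart. For kkv these were the kinase gene Lk6 (r = 0.988), the nuclear pore gene Nup107 (0.987) and CG43083 (0.983). For serp they were Rif1 (0.974), Pgant2 (0.968) and wor (0.961). For Cht5 they were jar, which codes for myosin VI (0.995), CG11737 (0.994) and Dhpr (0.992). CPM of jar averaged 198 at high and 306 at low density.

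Markers of tissues were summed as CPM to show what else moved between the pools. The epidermal list had 4 of 5 symbols found, and most of its sum came from grh. Its sum lay between 130.2 and 145 at high, between 126 and 133 at medium and between 102 and 125 at low density. High and low did not overlap, as was so for 33% of all tested genes taken singly. The tracheal list (6 genes, Gasp included) lay between 613 and 729 at high and between 574 and 656 at low density. Muscle genes lay between 1357 and 3566 at high and between 1142 and 1558 at low density, and fat body genes between 31918 and 46515 at high and between 40509 and 46301 at low density. Gut genes lay between 1100 and 1669 at high and between 1501 and 1796 at low density, and salivary gland genes between 6134 and 14069 at high and between 10424 and 12213 at low density. Testis genes summed to between 364 and 770.1 at high, between 380 and 476 at low and between 137 and 293 at medium density. No marker was at 0 in all libraries. The part of these lists in the differences of the chitin genes was not tested.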

How the data were processed

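The authors deposited expected counts, 1 column per library, which were not normalized. Per the file headers, featureCounts 1.6.2 counted read pairs on the reverse strand over exons of the RefSeq annotation of Release 6, by gene, and divided pairs that map to several places into fractions. The submitters' processing notes also name Trim Galore 0.6.4 and HISAT2 2.1.0.

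Counts were rounded and tested in edgeR 4.0.16 (R 4.3.3) with filterByExpr, TMM factors and the quasi-likelihood F-test, with 1 coefficient per density over all 9 libraries. P-values were adjusted over all 12883 genes tested by the Benjamini-Hochberg method, and 0.05 was the threshold. Standard errors were derived as the log2 change divided by the square root of F. The test was tried on simulated counts. Of the other chitin genes, up to 8 with the smallest joint p and at least 5 CPM were to be named; those called outside that rule are marked. For kkv, serp and Cht5 the 3 genes of at least 5 mean CPM with the highest Pearson r were named. Alternatives were DESeq2 1.42.0, limma voom 3.58.1, other scalings, filters and sets of libraries. The genes and lists were chosen with earlier results of these data known. Replicate numbers were not used to pair pools.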

Additional observations from a re-analysis of the deposited data

How the results depend on the processing

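Of 513 repeats of the log2 fold changes of the 9 genes (19 alternatives, single libraries left out included, in 3 comparisons), 456 kept direction and side of the threshold, 31 lost a call, 19 gained one and 7 turned sign. The 7 were all values near 0 between medium and low density that were not called: knk with library totals alone (-0.0295), serp with the roX covariate (-0.12), and Cht10 with only those 2 groups (0.0017), with the roX covariate (0.14), without low replicate 1 (0.037), without medium replicate 1 (0.006) and without medium replicate 3 (0.034); with single libraries left out, Cht10 ranged from -0.0853 (without medium replicate 2) to 0.037. The number of the 9 genes called between high and low density was 6 with library totals alone and with DESeq2, and 2 to 8 when single libraries were left out. Between medium and low density it was 1 with DESeq2 and 0 without any single library. Between high and medium density it was 3 with only those 2 groups, 2 with the roX covariate and 3 to 7 without single libraries; in the joint test it was 2 with the roX covariate and 2 to 9 without single libraries.

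Over all genes, with only the 2 groups compared, 978 were called between high and low, 7 between medium and low and 3095 between high and medium density, where the fit of all libraries gave 1961, 0 and 5102. DESeq2 called 1613 between medium and low density, and the roX covariate gave 1073 between high and medium density and 1551 in the joint test (4330 without it). Leaving out single libraries gave 807 to 2755 between high and low, 0 to 1094 between medium and low, 2675 to 5447 between high and medium and 990 to 4841 in the joint test. The lowest counts between high and low came without low replicate 1, 2 or 3 (807, 968 and 992) or high replicate 2 (989), and the 1094 came without medium replicate 2. Between high and medium the counts were 2675, 3268 and 3080 without medium replicate 1, medium replicate 3 and high replicate 2. The share of calls that were higher moved between TMM factors, upper-quartile factors and library totals alone from 27.5% to 41.6% and 65.1% between high and low, and from 53.9% to 66.5% and 84.0% between high and medium density. Ranked by CPM without length, 5 of the 9 genes kept their place in the order by TPM. Chosen after seeing the data, the order at high density and the ratios were repeated without single libraries: 5 to 9 genes kept their place (5 without high replicate 3), and the log2 difference in serp to verm between high and low density, 0.0921 with all libraries, ranged from -0.0488 (without high replicate 1) to 0.212. The cause was not tested.

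Same-numbered pools correlated at between -0.34 and 0.28 in their deviations from the group means, above 0.1 in 3 of 9 pairs. Pools of different number correlated at between -0.54 and 0.51. With 3 pools per density, these values cannot show whether the numbers pair the pools. With replicate number as a block, 3 of the 9 genes were called between high and low, 0 between medium and low and 4 between high and medium density (Cht10 not called), against 1405, 0 and 4643 of all genes. Leaving out 1 library of a group leaves 2, which limits the spread that can be estimated there.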
